A study of Homo sapiens with 2 samples.

Results

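Of the 8466 H3K27ac peaks of the ERG library that lay at most 1 kb from the start or end of a protein-coding gene record, 3255 had no overlapping peak in the Vector library, which is 38.4%. These ERG-only gene-end peaks made up 16.5% of the whole ERG list of 19671 peaks and 29.4% of its 11072 peaks on chromosomes 1 to 22, X and Y that lacked a Vector-library counterpart. They were chosen by place (hg38 coordinates, RefSeq gene records) and by the missing overlap of at least 1 bp. Their strength, width and absence from the Vector list are therefore descriptions. They covered 2.17 Mb and touched 3648 protein-coding genes, 3053 of which had no Vector-library peak at either end and 595 of which had one there as well.

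Each group was 1 chromatin immunoprecipitation library from F36P cells, a line established from human erythroid leukaemia. In the ERG library the cells carried a retroviral MSCV-PIG vector with AM-ERG, and their labelled genotype is ERG overexpression. In the Vector library they carried MSCV-PIG alone and are labelled WT. Both were selected in puromycin, 1 µg/ml for 4 days, fixed in 1% formaldehyde, cut with micrococcal nuclease and pulled down from 10 µg of chromatin with an antibody to acetylated lysine 27 of histone H3. What AM stands for is not given in the labels, which also name no clone and no promoter for ERG. The question given in the series text is how ERG holds back erythroid differentiation. With 1 library per group there was no replicate check and no test, so each difference below is between these libraries and not between the conditions. Intervals are exact (Clopper-Pearson) 95% binomial intervals and cover counting error only.

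H3K27ac is laid down by the acetyltransferases p300 and CBP and removed by histone deacetylases. It marks the nucleosomes that flank active gene starts and active enhancers, while the start itself is often free of nucleosomes. ERG is an ETS-family transcription factor of blood stem cells, megakaryocytes and endothelium, and ETS proteins bind DNA around a GGAA core. Many promoters of widely expressed genes are rich in CpG dinucleotides and hold binding sites of ETS proteins, NRF1, YY1, NF-Y or Sp1.

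The sequence in front of the start is given for a few members as examples. Shown are the 250 bases upstream of the RefSeq start (GRCh38.p14, written 5′ to 3′ on the gene's strand, CG dinucleotides in capitals) of the 3 strongest members with a promoter sequence, CIC, ZNF566 and PRMT1, and of 2 strong members from the gene lists, FARSA and BMI1.

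CIC, chr19:42268280-42268529, plus strand: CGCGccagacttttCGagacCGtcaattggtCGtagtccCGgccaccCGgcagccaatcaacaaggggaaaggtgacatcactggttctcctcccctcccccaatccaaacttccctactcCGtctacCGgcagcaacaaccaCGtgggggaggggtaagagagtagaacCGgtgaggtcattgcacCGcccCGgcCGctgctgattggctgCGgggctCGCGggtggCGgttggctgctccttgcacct
ZNF566, chr19:36489562-36489811, minus strand: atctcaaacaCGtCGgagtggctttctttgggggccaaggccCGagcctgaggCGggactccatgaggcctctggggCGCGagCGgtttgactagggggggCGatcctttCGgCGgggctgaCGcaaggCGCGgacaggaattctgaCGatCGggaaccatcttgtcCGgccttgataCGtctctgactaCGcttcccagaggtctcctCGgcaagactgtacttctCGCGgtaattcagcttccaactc
PRMT1, chr19:49677021-49677270, plus strand: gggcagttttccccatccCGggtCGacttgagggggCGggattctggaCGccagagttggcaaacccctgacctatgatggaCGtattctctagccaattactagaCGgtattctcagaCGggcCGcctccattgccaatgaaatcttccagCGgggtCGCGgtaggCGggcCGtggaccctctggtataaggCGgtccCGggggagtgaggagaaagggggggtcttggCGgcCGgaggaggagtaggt
FARSA, chr19:12933712-12933961, minus strand: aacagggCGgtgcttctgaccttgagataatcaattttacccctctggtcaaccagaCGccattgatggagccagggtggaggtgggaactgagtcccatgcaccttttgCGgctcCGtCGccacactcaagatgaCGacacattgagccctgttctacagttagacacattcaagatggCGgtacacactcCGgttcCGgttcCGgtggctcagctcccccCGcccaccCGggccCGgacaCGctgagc
BMI1, chr10:22320849-22321098, plus strand: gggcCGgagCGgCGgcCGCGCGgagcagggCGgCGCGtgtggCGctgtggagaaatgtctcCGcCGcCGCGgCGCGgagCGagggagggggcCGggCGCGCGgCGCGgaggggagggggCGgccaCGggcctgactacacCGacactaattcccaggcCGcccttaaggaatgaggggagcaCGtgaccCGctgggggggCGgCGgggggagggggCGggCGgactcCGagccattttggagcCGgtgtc

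All 5 stretches were GC-rich, from 58.4% GC in FARSA to 76.8% in BMI1. They held 14 CG dinucleotides in FARSA, 17 in PRMT1, 18 in CIC, 21 in ZNF566 and 35 in BMI1. The summit lay within the printed stretch at ZNF566, at -198 bp from the start. At CIC, FARSA and BMI1 it lay 67, 119 and 362 bp downstream of the start. At PRMT1 the whole peak lay farther upstream than the printed bases, with its summit at -674 bp. None of the 5 stretches held the ETS core CCGGAAG on either strand. BRCA1 also met the rule for these sequences, but its RefSeq record start lies beside the start of NBR1 and its sequence is not shown.

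A further set shows members whose promoter held the ETS core. They are the 5 strongest ERG-only peaks at such a start, 1 gene per peak, chosen after their values were seen. The core CCGGAAG, or CTTCCGG where it lies on the other strand, is in capitals (GRCh38.p14, 5′ to 3′ on the gene's strand).

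PLEKHG2, chr19:39412519-39412578, plus strand: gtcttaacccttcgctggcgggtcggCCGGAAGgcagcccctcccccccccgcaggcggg
PRDX5, chr11:64318033-64318092, plus strand: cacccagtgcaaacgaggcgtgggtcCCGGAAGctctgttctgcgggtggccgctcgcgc
ZNF568, chr19:36916268-36916327, plus strand: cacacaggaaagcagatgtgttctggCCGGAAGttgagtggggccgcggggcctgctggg
ZSCAN22, chr19:58326946-58326993, plus strand: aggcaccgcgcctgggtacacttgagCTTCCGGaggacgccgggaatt
TIMM10, chr11:57530755-57530793, minus strand: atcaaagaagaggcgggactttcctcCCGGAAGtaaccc

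The cores began 124 bp before the start in PLEKHG2, 62 bp in PRDX5, 38 bp in ZNF568, 22 bp in ZSCAN22 and 13 bp in TIMM10. At TIMM10 the whole peak lay farther upstream than the printed bases, with its summit at -392 bp. TIMM10 held 2 matches, of which 1 is shown. The PLEKHG2 core lay at the edge of its peak, which began at 39412550. These peaks held 113, 104, 102, 94 and 93 fragments at the summit, in the same order. The PRDX5 and ZNF568 peaks also lay at the starts of TRMT112 and ZNF829 on the opposite strand. A match is a run of letters and does not show that a factor binds there.

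The members were weaker and narrower than the gene-end peaks that both libraries shared. The number of fragments at a summit and the local background were recovered from the authors' deposited fold and p-value. The 3255 members had a median of 30 fragments (quartiles 22 and 42) over a background of 6.39, and the 5211 shared gene-end peaks had 62 fragments over 10.0. The 7817 ERG-only peaks away from gene ends had 27 fragments over 6.63. Median widths were 575 bp for members, 1016 bp for shared gene-end peaks and 456 bp for the peaks away from gene ends. Among members 29 (0.891%) reached 100 fragments, against 1008 (19.3%) of the shared gene-end peaks. The ERG library was also the deeper one, with a genome-wide background of 2.31 fragments against 1.60, a ratio of 1.44. At 1388 strong shared peaks, with 100 or more ERG-library fragments, the median ratio of fragments was 2.35.

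**Figure D1:**
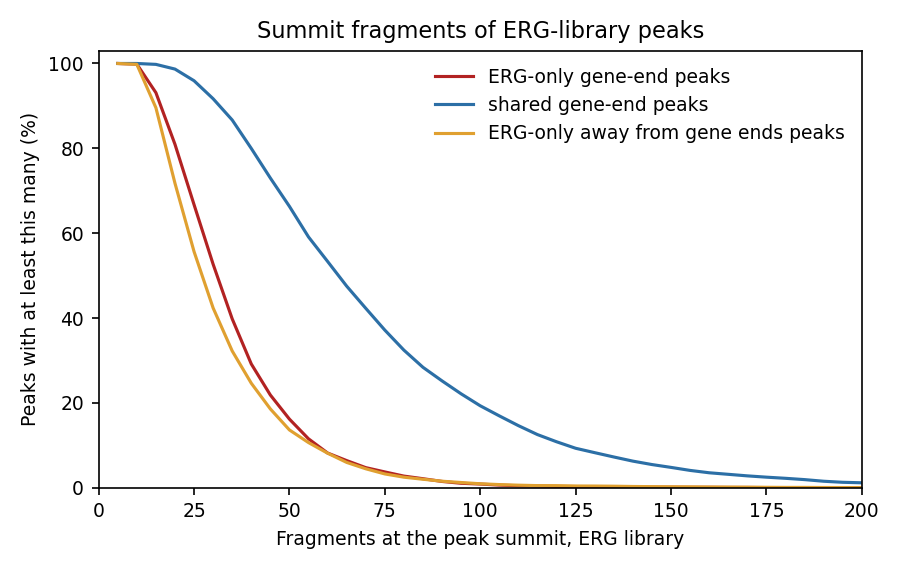
Share of ERG-library peaks (y axis, %) with at least the number of summit fragments on the x axis, for ERG-only gene-end peaks, shared gene-end peaks and ERG-only peaks away from gene ends. Both ERG-only curves fall early, with medians of 30 and 27 fragments, and the shared curve falls late, with a median of 62.0.

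A missing Vector-library peak did not show that acetylation was absent there. For each member the fewest fragments the Vector list could have called were computed, taking the Vector-library background as the ERG-library background divided by 1.44 and leaving aside the minimum peak length. The member's own fragments, divided by the same 1.44, were above that limit for 3029 of 3255 members (93.1%). They reached 2 times the limit in 416 members (12.8%) and 3 times in 37, and the median member stood at 1.39 times. With the ratio of 2.35 from strong shared peaks in place of 1.44, 2179 members (66.9%) were above the limit and 1076 were not. At that ratio 117 reached 2 times and 8 reached 3 times the limit. Most members were thus within a factor of 2 of what the Vector list could show, at either ratio.

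Some of the strongest members stood far above their limit. ZNF566, a zinc finger gene, had 172 fragments over 15.5 in a peak of 1669 bp across its start on chromosome 19 (36489164 to 36490832), or 4.76 and 4.06 times the limit at the ratios of 1.44 and 2.35. ANAPC15, which encodes a subunit of the anaphase-promoting complex, had 135 fragments over 17 across its start (chromosome 11, 72111833 to 72113281), or 3.60 and 3.02 times. The nearest Vector-library peak lay 37 kb from ZNF566 and 8.51 kb from ANAPC15.

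Several others among the 12 members with most fragments lay beside a Vector-library peak or over a high background. CIC, which encodes a transcriptional repressor, had the most fragments, 177, in a peak of 406 bp (chromosome 19, 42268397 to 42268802), and a Vector-library peak lay 831 bp away. It still stood at 3.71 and 3.14 times the limit at the ratios of 1.44 and 2.35. PRMT1, which encodes the main arginine methyltransferase, had 162 fragments (49676419 to 49676738 on chromosome 19) with a Vector-library peak at 544 bp. It stood at 3.51 and 2.99 times the limit. The peak over the 3' end of STAT3, 647 bp from the 3' end of STAT5A, had 150 fragments over a background of 47.2 (chromosome 17, 42312590 to 42313521). STAT3 and STAT5A encode signal transducers of cytokine receptors, and a Vector-library peak lay 432 bp from this site. UBA7, which encodes the ISG15-activating enzyme, and INKA1 shared a peak with 139 fragments over 54.2, which was 1.55 times the limit. PRKD2, a protein kinase D gene, had 129 fragments over 45.4, LOC124900417 128 over 50.4, the ribosome biogenesis gene WDR74 125 over 22.1 and SHANK3 118 over 29. IRF2, which encodes an interferon regulatory factor, had 123 fragments over 26 and a Vector-library peak 1003 bp away. CIC and PRMT1 were thus far above the limit despite a Vector-library peak nearby. Fragment number and distance above the limit did not always give the same order. UBA7 with 139 fragments stood at 1.55 times the limit, and WDR74 with 125 at 2.71 times.

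The widest members ran from 2212 to 3135 bp. SHANK3, known as a synaptic scaffold gene, had the widest one (chromosome 22, 50670831 to 50673965). MRRF, which encodes a mitochondrial ribosome recycling factor, followed with 2670 bp at its 3' end, and ZNF792 with 2383 bp. RUNX1, a transcription factor of blood stem cells and megakaryocytes, had a peak of 2374 bp beginning 77 bp from a record end (chromosome 21, 35046852 to 35049225). Its summit held 50 fragments over 17.2, which was 1.28 times the limit. LCN2, which encodes the iron-carrier-binding protein lipocalin 2, had 2266 bp and 57 fragments. HDDC3 with UNC45A had 2218 bp, P2RX1 2216 bp and HMGN4 2212 bp. The 3 widest also had the most fragments of these 8 members, 118 at SHANK3, 89 at MRRF and 79 at ZNF792, and the other 5 had 50 to 64.

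Among all gene-end peaks the ERG-only share fell steeply with strength. At gene starts it was 89.6% (86.7 to 92.1) for peaks with under 20 fragments, 54.5% (51.6 to 57.5) at 30 to 39 fragments, 13.1% (11.1 to 15.3) at 60 to 79 and 2.47% (1.53 to 3.75) at 100 or more. Peaks at a 3' end and at no start kept higher shares. They were ERG-only in 89.1% (78.8 to 95.5) at 20 to 29 fragments, 71.9% (58.5 to 83) at 40 to 59 and 21.4% (4.66 to 50.8) at 100 or more. Peaks away from gene ends had 86.1% (84.7 to 87.4), 66.7% (64.5 to 68.8) and 16.5% (13.2 to 20.2) in those ranges. Start peaks stood at 70.4% (67.5 to 73.2), 31.4% (29.2 to 33.6) and 2.47%, so at a like number of fragments 3' ends were closer to distal sites than to starts.

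**Figure D2:**
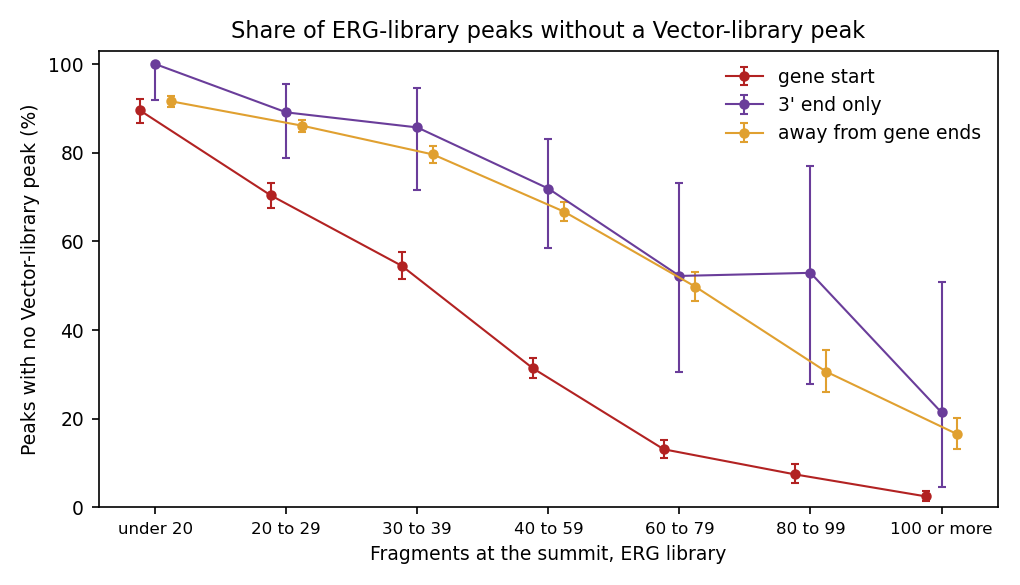
Share of ERG-library peaks with no Vector-library peak (y axis, %) against summit fragments in the ERG library (x axis, 7 ranges), with exact 95% intervals, for gene starts, 3' ends with no start, and sites away from gene ends. At 40 to 59 fragments the shares are 31.4%, 71.9% and 66.7%.

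Most members lay at gene starts, though a smaller share than among shared peaks. Strand came from the RefSeq promoter table, which covered 15843 of 20037 coding genes (79.1%), so the end could be named for 2734 members and 4411 shared gene-end peaks. A start lay within 1 kb of 2532 members, 92.6% (91.6 to 93.6), and of 98.7% (98.3 to 99) of the shared peaks. The other 202 members, 7.39% (6.44 to 8.43), lay at a 3' end only, against 59 shared peaks, 1.34% (1.02 to 1.72). Of these 202, 13 had any RefSeq start within 1 kb, coding or noncoding. Their median was 29.5 fragments, close to the 31 of members at a start, so the end classes differed little in strength. Starts on both strands within 1 kb were found at 28.2% (26.5 to 30) of start members and at 35.1% (33.7 to 36.6) of shared start peaks.

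The summits of members kept the usual place downstream of the start but were more spread upstream. For 2470 members the median summit position was 160 bp downstream of the nearest coding start, and for 4301 shared peaks 189 bp. Of the members, 69.4% (67.6 to 71.2) had the summit downstream, against 76.7% (75.4 to 78) of shared peaks. Between 100 and 500 bp downstream lay 54.1% of member summits and 64.3% of shared ones.

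**Figure D3:**
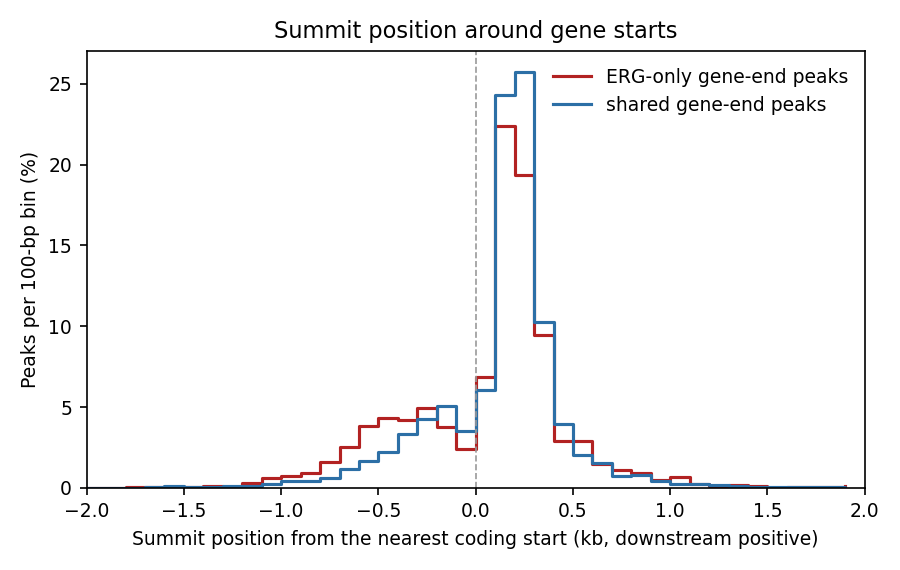
Summit position relative to the nearest coding start (x axis, kb, downstream positive) as a share of peaks per 100-bp bin (y axis, %) for ERG-only and shared gene-end peaks. Both curves peak between 0.1 and 0.3 kb downstream, and the ERG-only curve is higher upstream of -0.3 kb.

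The upstream excess was larger in members that lay beside a shared site. By the rule such members do not overlap the neighbouring Vector-library peak, which limits where their summits can lie. The part of this in the excess was not tested. A Vector-library peak lay within 1 kb of 363 members, 11.2% (10.1 to 12.3), without overlapping them, against 5.74% (5.24 to 6.28) of ERG-only peaks away from gene ends. In 339 of the 363 that Vector-library peak overlapped another ERG-library peak. Of the 363, 300 had a given coding start within 1 kb, and 59.7% (53.9 to 65.3) of these had their summit upstream of it. Of the other 2892, 2170 had such a start, and 26.5% (24.7 to 28.5) of these did. The 363 were also narrower and higher than the 2892, with median width 464 against 596 bp, 41 against 29 fragments, and a background of 11.6 against 5.91. The share with such a neighbour rose with strength from 2.10% (1.12 to 3.56) of members with under 20 fragments to 34.5% (17.9 to 54.3) of the 29 with 100 or more. At the other extreme, 1514 members (46.5%) had no Vector-library peak within 50 kb. Among the shortest gaps were 4 bp at CDC34, a ubiquitin-conjugating enzyme gene and 26 bp at the paired starts of CWC27 and SREK1IP1.

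GATA1, the central erythroid regulator, and ZBTB7A, a repressor of fetal globin, were such cases, named after their values were seen. Each had a peak of both libraries at its ends but none that overlapped. The GATA1 member (chromosome X, 48787375 to 48787937) had 44 fragments and lay 160 bp from the Vector-library peak. The ZBTB7A member (chromosome 19, 4067262 to 4067832) had 43 fragments at a gap of 502 bp. Both genes thus count as acetylated at an end in both libraries, although each had an ERG-only peak. In all, 28 genes with end peaks in both libraries lacked a shared one.

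The 1 kb limit did not separate unlike peaks. The 52 members in the last 100 bp inside it had a median of 33 fragments and 504 bp, and the 48 ERG-only peaks in the first 100 bp beyond it had 29.5 fragments and 518 bp. Nearest inside were MYO1C at 999 bp, CBS at 996 bp and LOC110384692 at 994 bp, with 26, 33 and 25 fragments. Nearest outside were ITGA10 at 1002 bp and SRGAP2C and AMDHD2 at 1004 bp, with 19, 37 and 28 fragments. A gene end was covered by 1278 members (39.3%), with a median of 33 fragments and 811 bp.

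The promoters of members were mostly CpG-rich, and their letters resembled those of shared promoters. One 300-base RefSeq promoter was used per gene, 250 bases before to 50 after the start, and motifs were sought on both strands. Starts were ERG-only where an ERG-only peak and no Vector-library peak lay within 1 kb (2421 genes), shared (4977) or without a peak (8375). A CpG-rich sequence, with GC above 50% and a CpG observed over expected ratio above 0.6, was found at 80.9% (79.3 to 82.4) of ERG-only starts, 87.8% (86.9 to 88.7) of shared starts, 42.8% (41.8 to 43.9) of starts without a peak and 62.9% of all 15843. The gap to shared starts held at like strength, with 81.7% (79.5 to 83.8) against 88.4% (86.1 to 90.4) for peaks of 20 to 39 fragments.

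The ETS core CCGGAAG was as frequent at ERG-only starts as at shared ones, 23.9% (22.2 to 25.6) and 24.1% (22.9 to 25.3), with 5.39% (4.91 to 5.89) at starts without a peak and 14.2% over all promoters. At 20 to 39 fragments the shares were 25.3% (22.9 to 27.7) and 22.5% (19.8 to 25.4). The GC box GGGCGG was found at 71.8%, 72.2% and 46.1% of ERG-only, shared and peakless starts, with 58.3% over all. NRF1 letters GCATGCG stood at 7.64%, 7.57% and 2.99% (5.16% over all). The YY1 letters ATGGCGG stood at 11.3% (10 to 12.6), 13.7% (12.8 to 14.7) and 2.84% (7.57% over all). The NF-Y box CCAAT differed little between the classes, at 38.7%, 37.6% and 35% (36.4% over all).

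GATA, TATA, AP-1 and RUNX letters were scarcer at ERG-only starts than at starts without a peak, and CRE letters were more frequent. The GATA letters AGATAA, of the erythroid GATA factors, stood at 4.75% (3.94 to 5.67) of ERG-only, 4.40% (3.85 to 5.01) of shared and 10.5% (9.82 to 11.1) of peakless starts, with 7.66% over all. The TATA box TATAAA stood at 4.54%, 5.14% and 14% (9.75% over all), and AP-1 letters TGANTCA at 3.92%, 3.54% and 7.52% (5.70% over all). RUNX letters TGTGGT stood at 9.83% (8.67 to 11.1), 8.58% (7.82 to 9.39) and 12.9% (11% over all). The CRE letters TGACGTC stood at 5.66%, 6.53% and 3.12% (4.56% over all). The E-box CAGCTG was found at 15.8%, 15.6% and 19.2% (17.5% over all), and the E-box CACGTG at 10.4%, 10.8% and 7.20% (8.82% over all). Base composition differs between the classes and was not held fixed in these shares, so its part in them was not tested.

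Starts without a Vector-library peak had one in the ERG library at a rate that differed with their sequence. The share was 35.3% (34.1 to 36.6) for CpG-rich starts and 8.82% (8.06 to 9.62) for the rest. Among starts with an ERG-library peak the order was the opposite, with 30.9% (29.8 to 32.1) ERG-only for CpG-rich starts and 43.3% (40.3 to 46.3) for the rest. Within CpG-rich starts without a Vector-library peak it was 60.5% (57.1 to 63.8) with the ETS core and 30.8% (29.5 to 32.1) without it. Among CpG-rich starts that had an ERG-library peak, by contrast, the ERG-only part was 31.1% (28.9 to 33.4) with the core and 30.9% (29.5 to 32.2) without it. The core thus went with having a peak at all, and among starts with an ERG-library peak it made no detectable difference to which were ERG-only.

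**Figure D4:**
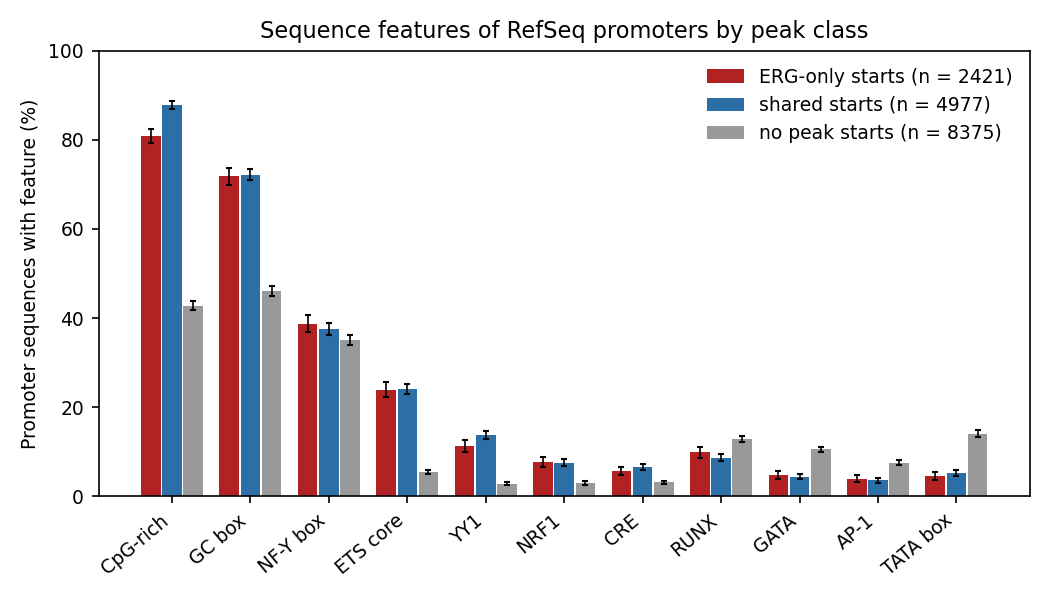
Share of 300-base RefSeq promoters (y axis, %) with each feature (x axis) at ERG-only, shared and peakless gene starts, with exact 95% intervals. ERG-only and shared bars are nearly level for the ETS core, at 23.9% and 24.1%, and both stand above the 5.39% of starts without a peak.

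Over all 20037 protein-coding genes, 3131 had end peaks of the ERG library but none of the Vector library (15.6%). They were 22.5% of the 13917 genes without a Vector-library end peak and 34.1% of the 9180 genes with an ERG-library end peak. Both denominators are needed, because the former rises in lists of widely active genes and the latter, added after the data were seen, asks only among genes acetylated in the ERG library. In 22 gene lists, 156 of 732 genes were ERG-alone. Of the 3648 genes touched by a member, 291 had 2 or more, and TDP2 and CKB had 4 each.

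Myeloid and mast cell genes with an ERG-library end peak mostly lacked one in the Vector library. They numbered 10 of 13, 76.9% (46.2 to 95), which were 32.3% (16.7 to 51.4) of the 31 with no Vector-library end peak. GFI1, a transcriptional repressor needed for granulocyte development, had 70 fragments over 10.7 in a peak 585 bp from its start (chromosome 1, 92485138 to 92486340), or 2.55 and 2.13 times the limit at the ratios of 1.44 and 2.35. MS4A3, a granulocyte progenitor gene, had 52 fragments, FCER1G, the Fc receptor gamma chain, had 51, and CPA3, the mast cell carboxypeptidase, had 44. Interferon and antigen presentation genes stood at 8 of 11, 72.7% (39 to 94), and at 22.2% (10.1 to 39.2) of those with no Vector-library end peak. The strongest end peaks of these 11 genes had a median of 36 fragments, against 50 over all genes with an ERG-library end peak and 51 in the myeloid list. The part of peak strength in the share was not tested. Among the interferon genes BST2, which encodes tetherin, had 57 fragments, IRF3 39, TAPBP 36 and IFITM2 35. In both lists the interval over genes with an ERG-library peak lay above the 34.1% of all genes, and that over genes without a Vector-library peak included 22.5%. This is no test, for the reasons given above. With the ERG list shortened to the length of the Vector list, 4 myeloid and 2 interferon genes were still counted.

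Endothelial, megakaryocyte and stem cell genes, from the tissues where ERG has known roles, had an ERG-library end peak in 23.1%, 40% and 37.5% of cases, against 45.8% of all coding genes. Of 26 endothelial genes 6 had an ERG-library end peak, 4 of them in that library alone, 66.7% (22.3 to 95.7). ICAM2, an adhesion molecule, had 66 fragments over 18.4 (chromosome 17, 64020114 to 64021200), PECAM1 had 41, ENG 36 and the receptor gene TIE1 22. At the ratios of 1.44 and 2.35 ENG stood at 0.959 and 0.806 times the limit and TIE1 at 1.09 and 0.850 times. ICAM2 and PECAM1 were above it at both. Below the limit a missing Vector-library peak tells nothing of the level. With the ERG list thinned by these ratios, 3 and 2 endothelial genes were counted. Of 30 megakaryocyte genes 12 had an ERG-library end peak and 6 were ERG-alone, 50% (21.1 to 78.9). NBEAL2, needed for platelet alpha granules, had 68 fragments across its start, ITGB3, the integrin beta 3 gene, had 56, the ATP receptor gene P2RX1 had 55 and PEAR1 had 49. PEAR1 had a Vector-library peak 466 bp from its member. Of 32 stem and progenitor genes 12 had one and 6 were ERG-alone, led by BMI1, a Polycomb gene, with 82 fragments over 18.5 (chromosome 10, 22321262 to 22321630, also at COMMD3). TRIB2, which encodes a pseudokinase, had 44. The intervals of these 3 lists included 34.1%, so no difference from all genes in this ERG-alone share was detectable with so few members. Of the endothelial, megakaryocyte and stem cell genes with no Vector-library end peak, 16.7% (4.74 to 37.4), 25% (9.77 to 46.7) and 23.1% (8.97 to 43.6) were ERG-alone, against 22.5% of all genes.

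Erythroid regulators with an ERG-library end peak mostly had a Vector-library one as well, as did genes in general. Of 21 erythroid transcription regulators with an ERG-library end peak, 16 had a Vector-library end peak too and 5 did not, 23.8% (8.22 to 47.2) against 34.1% of all genes, which the interval included. Those 5 were 62.5% (24.5 to 91.5) of the 8 with no Vector-library end peak. After RUNX1, KLF13 had 36 fragments over 6.67, or 1.78 times the limit, LMO2, the bridging protein of the TAL1 complex, had 29 over 10.4, and HES6 had 20 over 4.89. At the ratio of 2.35 LMO2 and HES6 stood at 0.881 and 0.945 times the limit, where a missing Vector-library peak tells nothing of the level.

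Of 27 heme, globin and iron genes with an ERG-library end peak 4 were ERG-alone, 14.8% (4.19 to 33.7), an interval just below 34.1%. Those 4 were 26.7% (7.79 to 55.1) of the 15 with no Vector-library end peak. That interval included the 22.5% of all genes, so the low share did not hold by both denominators. HBB, the adult beta-globin gene, had 40 fragments over 6.16 in a peak covering an end whose strand was not given, or 1.98 times the limit. The heme oxygenase gene HMOX2 had 30, and ALAS2, the erythroid enzyme that begins heme synthesis, had 19 over 3.66. Red cell membrane genes stood at 6 of 20, 30% (11.9 to 54.3). Those 6 were 31.6% (12.6 to 56.6) of the 19 with no Vector-library end peak. ICAM4, a blood group antigen gene, had 64 fragments in a peak it shares with ICAM1, the glycophorin genes GYPE and GYPB had 50 and 38, and BSG had 27. GYPE and GYPB are nearly identical in sequence, so their reads are uncertain.

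Erythropoietin and cytokine signalling genes stood at 8 of 24, 33.3% (15.6 to 55.3), and at 50% (24.7 to 75.3) of the 16 with no Vector-library end peak. Over all genes these shares were 34.1% and 22.5%. OSM, which encodes the cytokine oncostatin M, led them with 114 fragments over 28.1 (chromosome 22, 30265974 to 30267240), or 2.08 and 1.80 times the limit. GAB1, an adaptor of receptor kinases, had 45 over only 5.88, or 2.40 and 1.91 times. PTPN6, the phosphatase SHP-1, had 47 over 20.6 at its 3' end, which was 1.09 and 0.908 times, and ERFE, the erythroid hormone that lowers hepcidin, had 43 at its 3' end. Fragment number alone would have placed PTPN6 above GAB1.

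Of 16 ETS factor genes with an ERG-library end peak 6 were ERG-alone, 37.5% (15.2 to 64.6), which is near 34.1%. ELF4 had 52 fragments, but a Vector-library peak lay 947 bp away. ETV3, a repressor, had 27, SPIB 23 at its 3' end and ELK3 15 over 3.17. ELK3 stood at 1.15 times the limit, and at 0.797 times with the ratio of 2.35.

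Genes of the acetylation machinery did not differ detectably from the 34.1% of all genes with an ERG-library peak. Histone deacetylase and sirtuin genes stood at 7 of 16, 43.8% (19.8 to 70.1), and at 77.8% (40 to 97.2) of the 9 with no Vector-library end peak, where all genes stood at 22.5%. SIRT6 had 58 fragments over 9.55 across its start (chromosome 19, 4181637 to 4182691), or 2.23 and 1.90 times the limit, and HDAC8 had 32 over 3.83, or 2.22 and 1.70 times. HDAC10 had 59 at its 3' end in a peak shared with TUBGCP6, and SIRT7 had 25, or 1.02 times. Acetyltransferase, reader and corepressor genes stood at 7 of 36, 19.4% (8.19 to 36). Those 7 were 63.6% (30.8 to 89.1) of the 11 with no Vector-library end peak. KAT8, which acetylates histone H4, had 77 fragments in a peak it shares with BCKDK, the NuRD subunit gene GATAD2B had 55, the bromodomain gene BRD2 had 39 and CREBBP, which encodes CBP, had 36. BRD2 had a Vector-library peak 478 bp from its member.

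DNA repair genes, like other lists of widely active genes, had a high ERG-alone share among genes without a Vector-library end peak. The ERG-alone ones numbered 21 of 43 with an ERG-library peak, 48.8% (33.3 to 64.5), against 34.1% of all genes. They were 75% (55.1 to 89.3) of the 28 with no Vector-library end peak, against 22.5% of all genes. By this latter measure tRNA synthetase genes stood at 83.3% and cell cycle genes at 63.2%. XRCC5, which encodes Ku80 of end joining, had 79 fragments over 10.2 (chromosome 2, 216109346 to 216110066), or 2.88 and 2.40 times the limit. The record of BRCA1 had 82 in a peak at the start of NBR1 as well, LIG1, the replicative ligase gene, had 63, also at ZSWIM9, and the Fanconi anaemia gene FANCA had 45. The interval over genes with an ERG-library peak still included 34.1%. The median strongest end peak of these 43 genes held 44 fragments, against 50 over all 9180 genes with an ERG-library peak.

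Cell cycle genes stood at 12 of 36, 33.3% (18.6 to 51), close to the 34.1% of all genes, although they were 63.2% (38.4 to 83.7) of the 19 with no Vector-library end peak. CCND3, a D-type cyclin gene, had 83 fragments over 32.5 at its 3' end, or 1.37 times the limit. The sliding clamp gene PCNA had 46, and CDC25A, a phosphatase that activates cyclin-dependent kinases, had 43. Apoptosis genes stood at 7 of 29, 24.1% (10.3 to 43.5). Those 7 were 38.9% (17.3 to 64.3) of the 18 with no Vector-library end peak. Among them BCL2, which blocks apoptosis, had 43 fragments over 5.27, or 2.29 and 1.83 times the limit, CASP8 had 41 and BID had 40. Immediate early and NF-kappaB genes stood at 7 of 26, 26.9% (11.6 to 47.8), with JUNB at 67 over 25.3, ZFP36L1 at 46, DUSP5 at 36 and NFKB2 at 30. The 7 ERG-alone genes were 33.3% (14.6 to 57.0) of the 21 with no Vector-library end peak. Autophagy genes stood at 6 of 25, 24% (9.36 to 45.1), with the mitophagy receptor gene FUNDC1 at 46 over 6.35, TFE3 at 37 and BECN1 at 33. The 6 ERG-alone genes were 40% (16.3 to 67.7) of the 15 with no Vector-library end peak. Over all genes with no Vector-library end peak the share was 22.5%.

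The genes of the translation machinery show what the gene counts can and cannot tell. All 65 cytosolic ribosomal protein genes had an ERG-library end peak, and the 11 that lacked a Vector-library one were therefore 11 of 11, 100% (71.5 to 100). They were 16.9% (8.76 to 28.3) of the 65, below the 34.1% of all genes. RPS27 had 63 fragments, RPS14, whose gene lies in the 5q region lost in some myelodysplastic syndromes, had 58 over 8.94 or 2.36 times the limit, RPL28 had 54 and RPL34 had 51. These genes are active in all dividing cells. Aminoacyl-tRNA synthetase genes, which load tRNAs with amino acids, stood at 15 of 34, 44.1% (27.2 to 62.1), and at 83.3% (58.6 to 96.4) of the 18 with no Vector-library end peak. FARSA had 85 fragments over 26.6, SARS2 66 in a peak shared with MRPS12, FARSB 55 over 7.24 or 2.54 times the limit, and IARS1 52. Of genes of other tissues, 0 of 20 neuronal genes (up to 16.8%) and 0 of 19 fibroblast genes (up to 17.6%) were ERG-alone, and 2 of 20 liver genes were, TF with 42 fragments in a peak it shares with TOPBP1 and APOA1 with 21.

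**Figure D5:**
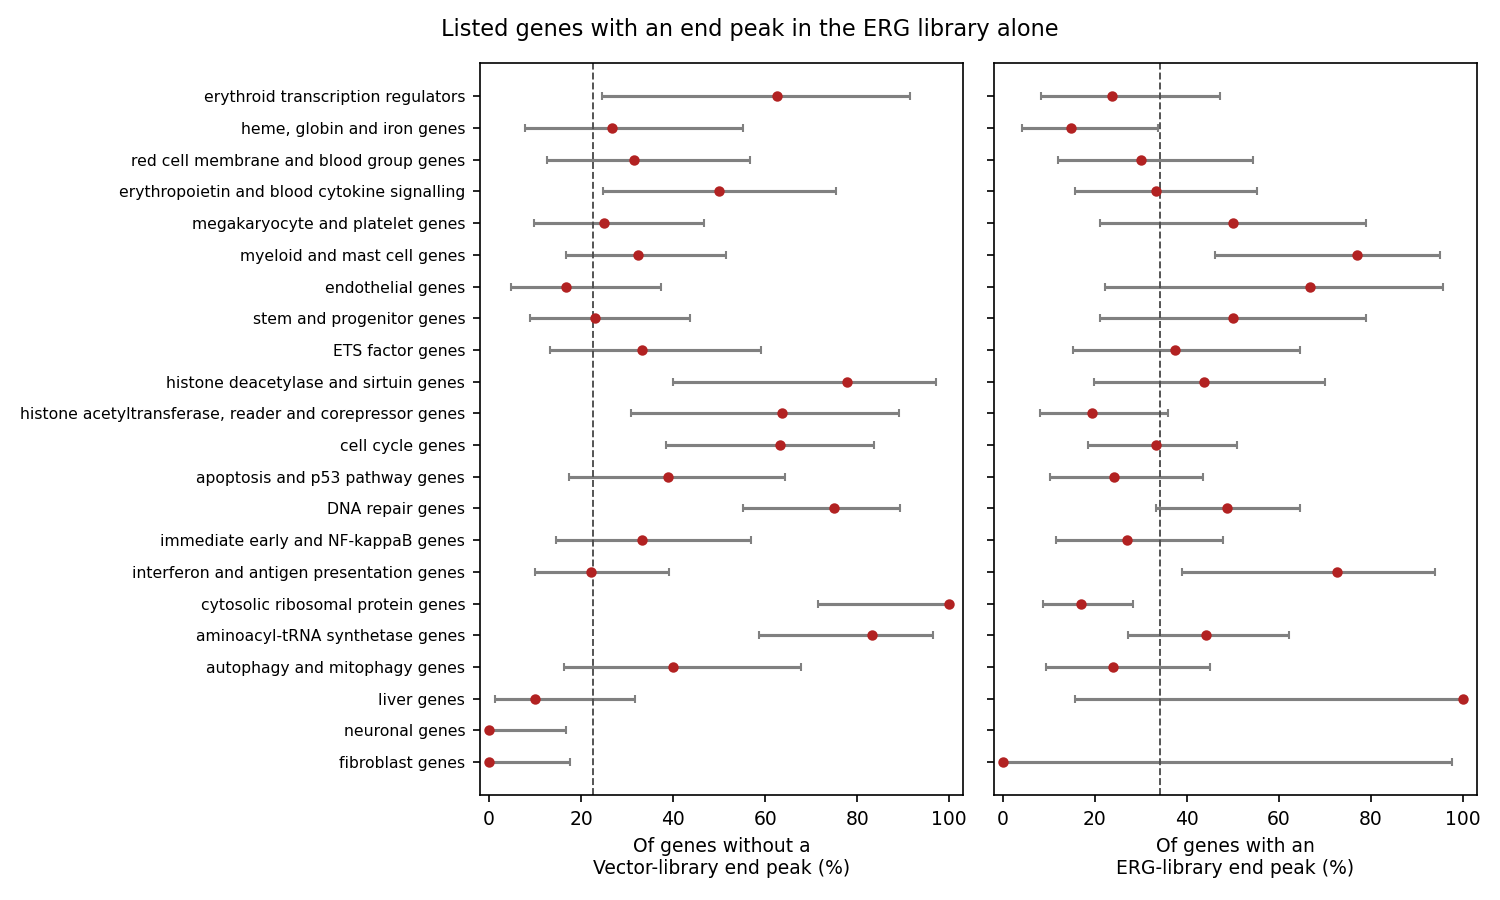
Share of listed genes that were ERG-alone (end peak in the ERG library and not in the Vector library), with exact 95% intervals, among genes without a Vector-library end peak (left, x axis in %) and among genes with an ERG-library end peak (right, x axis in %), for 22 lists (rows). Dashed lines mark all genes, 22.5% and 34.1%, and ribosomal protein genes stand at 100% on the left and 16.9% on the right.

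Gene families were also grouped by the letters of their symbols. Of 154 symbol stems with 15 or more genes, the highest ERG-alone shares among genes without a Vector-library end peak were 13 of 13 for MRPS, the small-subunit proteins of the mitochondrial ribosome, and 5 of 5 for INTS, the Integrator complex. NUP, the nucleoporins, followed with 5 of 6, TIMM, the inner-membrane translocases of mitochondria, with 4 of 5, and VPS, the vacuolar sorting proteins, with 11 of 14. These stems were picked by this same share, which was 22.5% over all genes. In the same families 15 MRPS, 11 INTS, 17 NUP, 10 TIMM and 21 VPS genes had end peaks in both libraries. Of genes with an ERG-library end peak, 46.4% of MRPS, 31.2% of INTS, 22.7% of NUP, 28.6% of TIMM and 34.4% of VPS were ERG-alone. All these intervals included the 34.1% of all genes. Among genes without a Vector-library end peak the share was 0 in 22 stems. They included the defensins DEFB (0 of 39), the chemokines CCL (0 of 28), the taste receptors TAS (0 of 27), CT (0 of 25) and the cadherins CDH (0 of 23). Zinc finger genes with the stem ZNF, many of them encoding KRAB repressors, stood at 135 of 274, 49.3% (43.2 to 55.4), against 22.5% over all genes. Another 243 ZNF genes had end peaks in both libraries, so that the ERG-alone share of those with an ERG-library peak was 35.7% (30.9 to 40.8), near the 34.1% of all genes. Olfactory receptors stood at 2 of 392, 0.510%.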

How the data were processed

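H3K27ac was measured in 1 ERG and 1 Vector library of F36P cells. The authors deposited 1 peak list per library. Bowtie2, MACS2, deepTools and hg38 are named, per the submitters' processing notes. Versions, settings, read totals and the use of an input library are not given in the sources used here. Deposited columns are the position and summit, a score, the fold enrichment ratio at the summit, and its −log10 p-value and −log10 q-value, all values of the authors' peak caller.

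Summit fragments and local background were solved from the deposited fold, taken as fragments plus 1 over background plus 1, and the p-value, taken as a Poisson tail. The formulas are those of MACS2 and are assumed for these lists. They gave whole fragments for 99.9% of peaks of either list, within a relative error of 0.0001. The solving step was tested on data simulated with the same formulas, which cannot show that the formulas hold for these lists. The lowest background of each list served as its depth. The Vector-library limit used the lowest deposited −log10 p-value of that list, 3.98. Peaks shared a site when they overlapped by 1 bp or more. Genes, strand and promoters came from RefSeq tables of GRCh38.p14. All 732 listed names matched. A motif was sought within 300-base promoters, for 13820 of 15843 genes exactly at the record's start and otherwise at the nearest one given.

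Named are the 12 strongest and 8 widest members, up to 4 ERG-alone genes per list by fragments, 3 peaks on each side of the 1 kb limit, the 3 with the shortest gap to a Vector-library peak, the 5 highest and 5 lowest symbol stems, and promoters of up to 6 of these genes. List genes on chromosome 8 are left out of the text. Some items that the rule names are not reported here. Exceptions are marked. Members, lists and settings were chosen with earlier results of these data known. Alternatives changed the overlap, window, score, list length and depth. Shares have exact 95% intervals and no test was made. Python 3.11.15, numpy 2.4.6, pandas 2.3.3, scipy 1.17.1 and matplotlib 3.10.9 were used.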

Additional observations from a re-analysis of the deposited data

How the results depend on the processing

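With 1 library per group no replicate could be left out. No paired analysis was possible because each group holds 1 library and the results come from no test. The number of members, 3255, fell to 1278 when a peak had to cover the gene end and to 1100 with the ERG list shortened to as many peaks as the Vector list, and lay between 2179 and 3767 under the other settings. Their share of gene-end peaks, 38.4%, was 35.7% and 34.2% when a Vector-library peak within 500 bp or 1 kb counted as shared, 26.6% for covered ends, 40.9% with a 2.5 kb window, 36.8% at starts only, 39.6% with a deposited −log10 q-value of at least 3, 47.8% in the upper 50% of each list, 19.4% with the shortened list, 36.8% with the ERG library thinned by 1.44, and 30% thinned by 2.35. The last setting was chosen after the data were seen. ERG-alone genes numbered 1232 and listed ERG-alone genes 67 with the shortened list, where 18 of 22 lists moved by more than 1.5 times, and 2233 and 119 when thinned by 2.35, where 6 lists moved so. At starts only 6 lists did. With the shortened list 11 of 21 DNA repair, 6 of 11 ribosomal protein, 7 of 15 tRNA synthetase, 4 of 10 myeloid, 2 of 8 interferon and 1 of 5 erythroid regulator genes were counted, and 0 of 6 red cell membrane and 0 of 7 immediate early genes. The CpG-rich share, 80.9%, lay between 81 and 82.2% under the 4 settings run for it. Depth limits the weak members most, since a site at the genome background needs 8 fragments to enter the Vector list.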

Other observations

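The share of gene-end peaks that were ERG-only differed between chromosomes. It was highest on chromosome X, 53.7% (47.7 to 59.6) of 283, followed by 49.5% on chromosome 17, 47.2% on 22 and 46% on 5, and, with Y left out for its 8 gene-end peaks, lowest on chromosome 8, 27.8% (22.8 to 33.2) of 299. On X and 5 the peaks were also weak. The median over all gene-end peaks of the ERG library was 30 fragments on X, 32 on 5 and 60 on 8, and in the Vector library it was 18, 20 and 33.0. This did not hold throughout, since chromosome 19 had an ERG-only share of 43.5% with an ERG-library median of 55 fragments and a Vector-library median of 36. Over 23 chromosomes the median fragments of shared ERG-library and of Vector-library gene-end peaks had a Spearman correlation of 0.848, and the ERG-only share and the Vector-library median one of -0.313. Chromosomes of one library share its depth, so these are descriptions.

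Within 3 chromosomes the share changed along the length, in blocks chosen after their values were seen. On chromosome 7 it was 53.1 to 55.9% in the 3 bins of 25 Mb up to 75 Mb and 24 to 31.1% in the bins beyond. Median ERG-library fragments were 29 to 30.5 in the former and 42.5 to 50 in the latter, and Vector-library medians 20 to 22 and 23 to 34.0. On chromosome 17 the share was 54.3 to 56.5% up to 50 Mb and 36 to 43.2% beyond, with ERG-library medians of 29 to 37 and 53 to 53.5. On chromosome 5 it was 30.8 to 33.3% up to 50 Mb and 44.2 to 56.5% beyond, with ERG-library medians of 41 to 54.5 and 26.5 to 35.0. In each block with a high ERG-only share the peaks were lower in both libraries. DNA copy number was not measured here, so its part in this was not tested.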
